A study of Mus musculus with 5 samples.

Results

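The genes described here are 65 of the 22071 RefSeq gene symbols in the expression table. They were chosen by name from the RefSeq part of the table: symbols that begin with the prefixes of the bone morphogenetic proteins (BMPs), growth differentiation factors, TGF-betas, inhibin beta subunits, their receptors, the Smads and the latent TGF-beta binding proteins, together with Id1 to Id4 and secreted or membrane antagonists such as Nog, Chrd, Chrdl1, Grem1, Fst and Bambi. No measured value entered that choice. Of the 65, 53 reached 1 FPKM (read fragments per transcript, divided by its length in kilobases and by the library's mapped fragments) in at least 1 library, 37 did so in all 5 libraries, and 12 never did. A name-based choice also takes 4 genes that are no ligand, receptor or Smad (Bmp1, Bmp2k, Tgfb1i1 and Tgfbrap1), and they are described apart.

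The study sequenced poly(A) RNA from 3 brain regions where neurons are born or arrive in adult mice and from the striatum as a non-neurogenic control. All animals were adult male wild-type C57BL/6 mice that received no treatment named in the labels. The groups were the subventricular zone (SVZ, 2 biological replicates), the olfactory bulb (OB, 1 sample), the dentate gyrus (DG, 1 sample) and the striatum (STR, 1 sample). Each region was cut out by hand as whole tissue and frozen at once, so every sample mixes all cell types of its region. The number of animals behind a sample and the strand setting of the libraries are not given in the sources used here. In such bulk tissue, fewer cells of a type and less RNA per cell cannot be told apart.

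BMPs, growth differentiation factors, activins and TGF-betas are secreted dimers that bring type I and type II receptor kinases together. The activated type I receptor phosphorylates receptor-regulated Smads, which enter the nucleus with Smad4 and switch target genes on or off, among them the Id genes that hold back neuronal differentiation. Secreted antagonists such as noggin, made by ependymal cells of the SVZ, keep BMPs from their receptors, and this balance is known to govern whether adult neural stem cells rest, divide or form glia.

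The region labels held against summed marker genes, with some limits. The 5 markers of olfactory bulb neurons summed to 1146 FPKM in OB and to between 6.30 and 18.1 FPKM in the other libraries. The 5 markers of dentate granule neurons summed to 547 FPKM in DG and to between 6.22 and 127 FPKM elsewhere. Of these, Calb1 was higher in STR, at 123.8 FPKM, than in DG, at 110.9 FPKM, and stood at 72.9 and 95.7 FPKM in the SVZ samples. The others were highest in DG. The 6 markers of striatal projection neurons summed to 3313 FPKM in STR but also to 4092 and 3231 FPKM in the SVZ samples, so both carried striatal markers at about the level of STR. The 6 ependymal markers summed to 279 and 118 FPKM in the SVZ samples and to between 3.19 and 16.2 FPKM in the other 3 libraries.

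The libraries also fell into 2 sets that the labels do not name. Gapdh, a glycolytic enzyme, was 457, 563 and 414 FPKM in a first set of SVZ sample 1, OB and DG, and 32.4 and 39.5 FPKM in a second set of SVZ sample 2 with STR. The SVZ pair spans both sets, and SVZ sample 1 minus SVZ sample 2 followed transcript GC content over 13249 coding genes (Spearman rho = 0.73, across genes, which are not independent replicates). Differences between OB or DG and STR therefore run between the sets. Each such difference is given again as a bridged value, the sum of its distance to SVZ sample 1 and of the distance from SVZ sample 2 to STR, and differences from the SVZ are given again with the SVZ sample of the same set.

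All 6 pairwise comparisons of regions used log2(FPKM + 1), where 1 unit is a 2-fold ratio and folds of low genes are understated. With OB, DG and STR at 1 sample each, limma took its error from the SVZ pair alone (1 residual degree of freedom). Every standard error (SE) below thus assumes that the other regions vary like the SVZ. It also carries the gap between the library sets, even for OB against DG. For genes near 0 FPKM in both SVZ samples it can be small because log2(FPKM + 1) flattens low values. limma called 0 genes of the whole table in each pair after Benjamini-Hochberg adjustment, while between 522 and 1825 genes per pair had an unadjusted p under 0.05. Members were therefore counted by size, at 1 log2 unit or more, and read against the same count over coding genes. The 6 pairs share libraries, so their counts are not independent of one another.

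The OB library stood apart for these genes. It held 25 of 53 members at least 1 unit above STR, or 47.2%, against 30.6% of coding genes, and 4 members below, or 7.55%, against 6.69%. The bridged counts were 18 higher and 4 lower, against 10.98% and 5.34% of coding genes. Against DG, which lies in the same set, OB held 20 of 53 members higher and 4 lower, against 14.4% and 5.28% of coding genes. The 20 include Bmp2 and Grem1, which were listed at 0 in DG and also enter the counts of DG against STR, as Bmp2 enters that of SVZ against DG. The median difference between OB and DG was 0.61 log2 over the members and 0.25 log2 over coding genes.

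SVZ showed the same order against OB. In the SVZ, 2 of 53 members were higher and 20 lower than in OB, against 7.18% and 14.8% of coding genes, and with SVZ sample 1 alone, 2 were higher and 19 lower, against 7.57% and 9.21%. Few members differed between the SVZ and the striatum: of 48, 3 (6.25%) were higher in the SVZ and 3 (6.25%) lower, against 7% and 1.12% of coding genes. The share lower was thus above that of coding genes, though on 3 members. SVZ sample 2 alone, of the same set as STR, gave 2 higher and 4 lower, against 3.86% and 0.807%. SVZ sample 1 alone, of the other set, gave 9 higher and 2 lower. The coding share of that comparison was not counted, so the 9 cannot be read as a result about the members. Between the SVZ samples themselves, 11.8% of coding genes were at least 1 unit higher in sample 1. DG against STR gave 10 of 47 members higher and 4 lower, against 17.5% and 8.28%, and the bridged counts were 7 and 5, against 6.62% and 8.99%. SVZ against DG gave 5 of 47 higher and 7 lower, against 10.6% and 7.97%. With SVZ sample 1 alone, of the same set as DG, the balance turned to 9 higher and 5 lower, against 12.5% and 5.63%.

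Coding genes as a whole were shifted between libraries, by a median of 0.53 log2 for OB minus STR, 0.26 for DG minus STR, 0.25 for OB minus DG, 0.24 for SVZ minus STR and -0.24 for SVZ minus OB. After median ratio scaling, which brings these medians near 0, OB minus STR split into 17 members higher and 7 lower in place of 25 and 4, against 14.5% and 14.4% of coding genes. DG minus STR split into 6 and 6 in place of 10 and 4, against 11.1% and 12.7%. SVZ minus STR split into 2 and 5 in place of 3 and 3, against 4.90% and 2.30%. OB minus DG kept 16 higher and had 5 lower, against 9.99% and 7.44%.

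**Figure D1:**
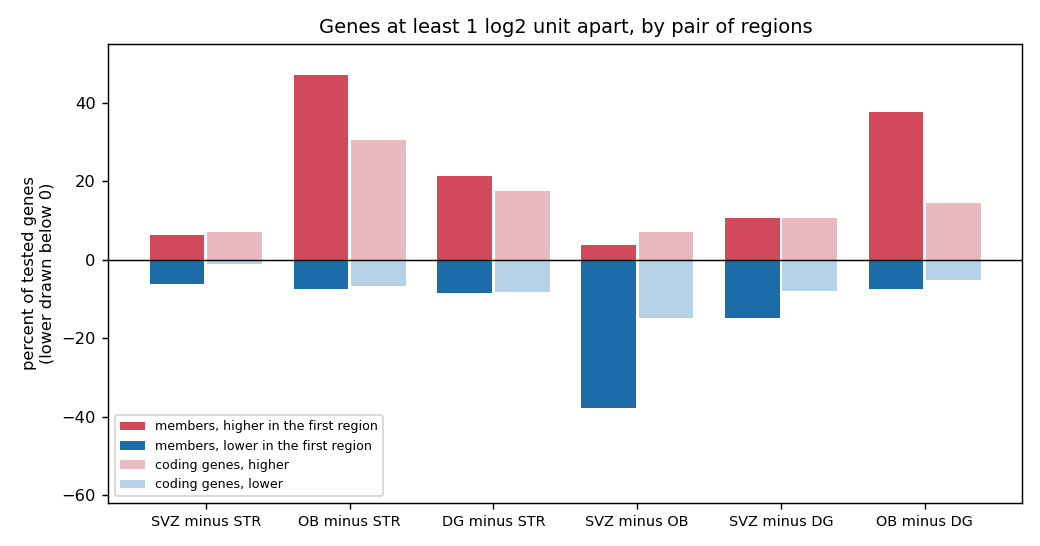
Percent of tested genes at least 1 log2 unit apart on log2(FPKM + 1) in each pair of regions; dark bars are the pathway members and pale bars all coding genes, with genes lower in the first region drawn below 0. The members' bars pass the coding genes' bars most clearly where OB is one of the regions, such as 47.2% against 30.6% for OB over STR.

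Of the 53 members, 13 stood in OB at least 1 unit above each of the other 3 regions, or 24.5%, against 6.82% of coding genes. They were Bmp3, Bmp4, Bmp5, Bmp6, Bmp7, Gdf11, Tgfb3, Ltbp1, Ltbp2, Ltbp3, Nog, Grem1 and Id2, all of them secreted proteins except Id2. Of these, Bmp3, Bmp5 and Ltbp2 reached 1 FPKM only in OB, the region where they were high. Like Gdf9 and Smad6, they entered the 53, and the counts of pairs with OB, through OB alone. The coding genes passed the same filter. After median ratio scaling, 11 of the 13 remained, against 4.36% of coding genes, the exceptions being Bmp6 and Id2. With SVZ sample 1 as the only SVZ sample, 12 remained, all but Bmp6. Against STR, the bridged values of Bmp4 and Id2 fell below 1 unit, to 0.93 and 0.94, and those of the others did not. The coding share under that bridged check was not counted.

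The other regions had few such genes. DG stood above the others for 2 members, Chrd and Tgfb2, against 2.82% of coding genes, and below them for 2, Bmp2 and Acvrl1, against 2.15%. Bmp2 was listed at 0 in DG, which can be a failed estimate. STR stood above for Acvr1c, against 0.684%, and below for Id1, against 1.56%. No member was 1 unit above the other regions in the SVZ, against 2.2% of coding genes, and Gdf10 was the 1 member below, against 0.143%. By highest level alone, without a minimum distance, OB led for 33 of 53 members (62.3%, against 48.2% of coding genes), DG for 8 (19.2% of coding genes), STR for 7 (15.8%) and the SVZ for 5 (16.8%).

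**Figure D2:**
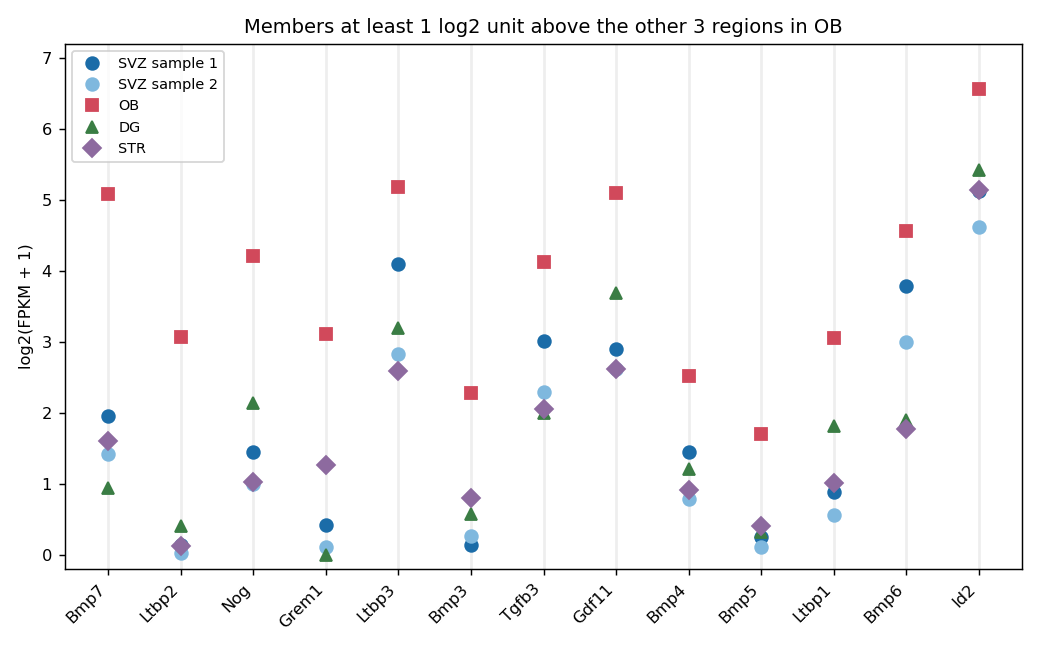
Level of the 13 members that stood at least 1 log2 unit above the other 3 regions in OB, on log2(FPKM + 1), 1 point per library. The OB point (square) lies above all 4 other libraries for each gene, with the widest distance for Bmp7 at 32.8 FPKM.

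Among the BMP ligands, Bmp7 showed the widest range. It is a ligand made in meninges and choroid plexus during development, and it stood at 2.87 and 1.68 FPKM in the SVZ samples, 32.8 in OB, 0.912 in DG and 2.02 in STR. OB was high alone and the other 4 libraries lay between 0.912 and 2.87 FPKM. The difference of OB from DG was 4.15 log2 (SE 0.53) and from STR 3.48 (SE 0.53, bridged 2.96). The adjusted limma p was 0.337 against DG and 0.403 against STR. In the deposited table Bmp7 lies on chromosome 2, from 172695189 to 172765794 (mm9).

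Bmp6, which also controls hepatic iron sensing, was above Bmp7 in every library except OB. It stood at 12.8 and 6.98 FPKM in the SVZ samples, 22.7 in OB, 2.73 in DG and 2.40 in STR. OB was highest and both SVZ samples lay between it and the low pair of DG and STR. The SVZ stood 1.63 log2 above STR (SE 0.55; 1.23 with SVZ sample 2) and 1.49 above DG (SE 0.55), and OB stood 2.67 above DG (SE 0.64). The distance of the SVZ from OB was -1.18 (SE 0.55) and shrank to -0.79 with SVZ sample 1 alone.

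Bmp4, the ligand best known for turning SVZ precursors towards glia, was low throughout. Its values were 1.74 and 0.722 FPKM in the SVZ samples, 4.71 in OB, 1.31 in DG and 0.886 in STR. OB was again highest, 1.60 log2 above STR (SE 0.53), but the bridged value was 0.93. Bmp3, a BMP that antagonises other family members, stood at 3.87 FPKM in OB and at 0.0938 to 0.737 FPKM elsewhere, and Bmp5 at 2.26 FPKM in OB and at 0.0765 to 0.328 FPKM elsewhere. Both lay above STR in OB, Bmp3 by 1.49 (SE 0.15, bridged 1.63) and Bmp5 by 1.29 (SE 0.12, bridged 1.15). These small SEs rest on SVZ values near 0 FPKM and say little about the spread in OB or STR.

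Bmp2 departed from this pattern. It stood at 2.48 and 2.10 FPKM in the SVZ samples, 2.52 in OB and 2.14 in STR, and was listed at 0 in DG, which can be a failed estimate, so no fold is given. The SVZ, OB and STR values were close to one another. Bmp8a, Bmp8b, Bmp10 and Bmp15 never reached 1 FPKM, and Bmp8a and Bmp8b are close copies between which reads may be split. Summed over the 10 BMP ligands, the levels were 20.4 and 11.9 FPKM in the SVZ samples, 69.4 in OB, 5.74 in DG and 8.61 in STR.

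The 3 growth differentiation factors above 1 FPKM split between OB and DG. Gdf11, which limits neuron production in the olfactory epithelium, stood at 6.43 and 5.15 FPKM in the SVZ samples, 33.1 in OB, 11.95 in DG and 5.16 in STR. OB stood 2.47 log2 above STR (SE 0.35, bridged 2.20) and 1.40 above DG (SE 0.35). Gdf10, a close relative of Bmp3, stood at 1.86 and 1.61 FPKM in the SVZ samples, 8.77 in OB, 14.6 in DG and 4.60 in STR. The SVZ was the lowest region for Gdf10, 2.51 log2 below DG (a difference of -2.51, SE 0.33) and -1.04 from STR (SE 0.33), which was -0.97 with SVZ sample 1 alone.

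Gdf9, an oocyte factor, lay between 0.0861 FPKM in STR and 1.33 FPKM in OB. Gdf2, Gdf3, Gdf5, Gdf6, Gdf7 and Gdf15 never reached 1 FPKM.

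The 3 TGF-beta ligands had 3 different orders. Tgfb2, the isoform most expressed by neurons and astrocytes, stood at 3.80 and 3.26 FPKM in the SVZ samples, 3.62 in OB, 14.6 in DG and 2.12 in STR. DG was high alone, 2.32 log2 above STR (SE 0.40, bridged 2.15), and the adjusted limma p was 0.483. Tgfb3 stood at 7.06 and 3.92 FPKM in the SVZ samples, 16.5 in OB, 2.97 in DG and 3.16 in STR, so OB was high alone, 2.14 above DG (SE 0.61). Tgfb1, made mainly by microglia in the brain, ranged from 2.08 FPKM in STR to 5.41 in OB, and its distance of OB from STR of 1.06 (SE 0.53) was 0.52 bridged.

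Of the activin subunits, Inhba was higher in the SVZ and OB libraries than in those of DG and STR. Inhba encodes the beta A chain of activin A and is induced by neuronal activity. It stood at 23.1 and 26.7 FPKM in the SVZ samples, 20.4 in OB, 8.84 in DG and 6.78 in STR. The SVZ stood 1.73 log2 above STR (SE 0.25), 1.83 with SVZ sample 2 of the same set as STR, and 1.39 above DG (SE 0.25). The adjusted limma p for SVZ against STR was 0.925. Inhba was the one SVZ-high ligand whose 2 SVZ values differed little, by -0.21 log2.

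Inhbb, the beta B chain, lay lower, at 2.94 and 1.85 FPKM in the SVZ samples, 2.67 in OB, 0.773 in DG and 0.940 in STR. Inhbc and Inhbe never reached 1 FPKM.

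All 4 latent TGF-beta binding proteins, which tether TGF-beta in the extracellular matrix, were at least 1 unit higher in OB than in STR and than in the SVZ. Ltbp2 stood at 0.101 and 0.0203 FPKM in the SVZ samples, 7.42 in OB, 0.319 in DG and 0.0866 in STR. OB was the only library above 1 FPKM. OB stood 2.95 log2 above STR (SE 0.13, bridged 2.84). Both SVZ values were near 0 FPKM, where log2(FPKM + 1) leaves little room to differ. The small SE therefore says little about the spread in OB or STR. Ltbp2 shares its place on chromosome 12 with the symbol D030025P21Rik, whose reads cannot be told apart from its own without strand.

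Ltbp1 stood at 0.836 and 0.472 FPKM in the SVZ samples, 7.33 in OB, 2.50 in DG and 1.02 in STR, and OB stood 1.25 log2 above DG (SE 0.36). Ltbp3 and Ltbp4 were higher still but followed the library sets. Ltbp3 stood at 16.1 and 6.11 FPKM in the SVZ samples, 35.3 in OB, 8.14 in DG and 4.998 in STR. Its distance of OB from STR of 2.60 (SE 0.92) was 1.33 bridged.

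Ltbp4 stood at 13.7 and 4.44 FPKM in the SVZ samples, 35.2 in OB, 26.7 in DG and 5.54 in STR. The distance of DG from STR was 2.09 log2 (SE 1.03) and 0.65 bridged. Summed over the 4 proteins, the levels were 30.7 and 11.04 FPKM in the SVZ samples, 85.3 in OB, 37.7 in DG and 11.6 in STR.

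The secreted BMP antagonists did not share 1 order. Nog, which encodes noggin, stood at 1.73 and 0.989 FPKM in the SVZ samples, 17.4 in OB, 3.39 in DG and 1.03 in STR. OB was high alone, 3.18 log2 above STR (SE 0.49, bridged 2.73) and 2.07 above DG (SE 0.49). Both SVZ samples were at or near the level of STR: the distance of the SVZ from OB was -2.98 (SE 0.42). The gene lies on chromosome 11, from 89161952 to 89163873 (mm9).

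Chrd, which encodes the BMP antagonist chordin, had its maximum in DG instead. It stood at 2.42 and 0.826 FPKM in the SVZ samples, 3.33 in OB, 21.8 in DG and 1.63 in STR. DG was high alone, 3.12 log2 above STR (SE 0.73, bridged 2.22) and 2.40 above OB (a difference of OB minus DG of -2.40, SE 0.73). Its locus overlaps the symbol Thpo. Bmp1, which encodes a protease that cleaves chordin, was also highest in DG when its 2 transcripts were summed, at 57.5 FPKM, against 16.6 and 7.93 in the SVZ samples, 45.05 in OB and 9.80 in STR, and DG minus STR was 2.44 log2 (SE 0.72, bridged 1.46). The DG maximum came from the noncoding transcript NR_033241, at 41.7 FPKM in DG and 24.4 in OB. The coding transcript NM_009755 of Bmp1 was highest in OB instead, at 20.7 FPKM against 15.8 in DG.

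Grem1, a secreted BMP antagonist, stood at 0.338 and 0.0789 FPKM in the SVZ samples, 7.66 in OB and 1.39 in STR, and was listed at 0 in DG, so no fold against DG is given. OB was high alone, 1.86 log2 above STR (SE 0.27, bridged 1.55).

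Chrdl1, a chordin-like antagonist of astrocytes, stood at 0.850 and 0.964 FPKM in the SVZ samples, 7.90 in OB, 2.32 in DG and 3.61 in STR. The SVZ was lowest, at -1.28 from STR (SE 0.31), and this became -0.87 when only the transcript with the highest mean was used. Fst, which encodes the activin-binding follistatin, stood at 3.22 and 6.74 FPKM in the SVZ samples, 4.77 in OB, 6.46 in DG and 3.70 in STR. The SVZ samples thus held both the lowest and the highest value of Fst.

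**Figure D3:**
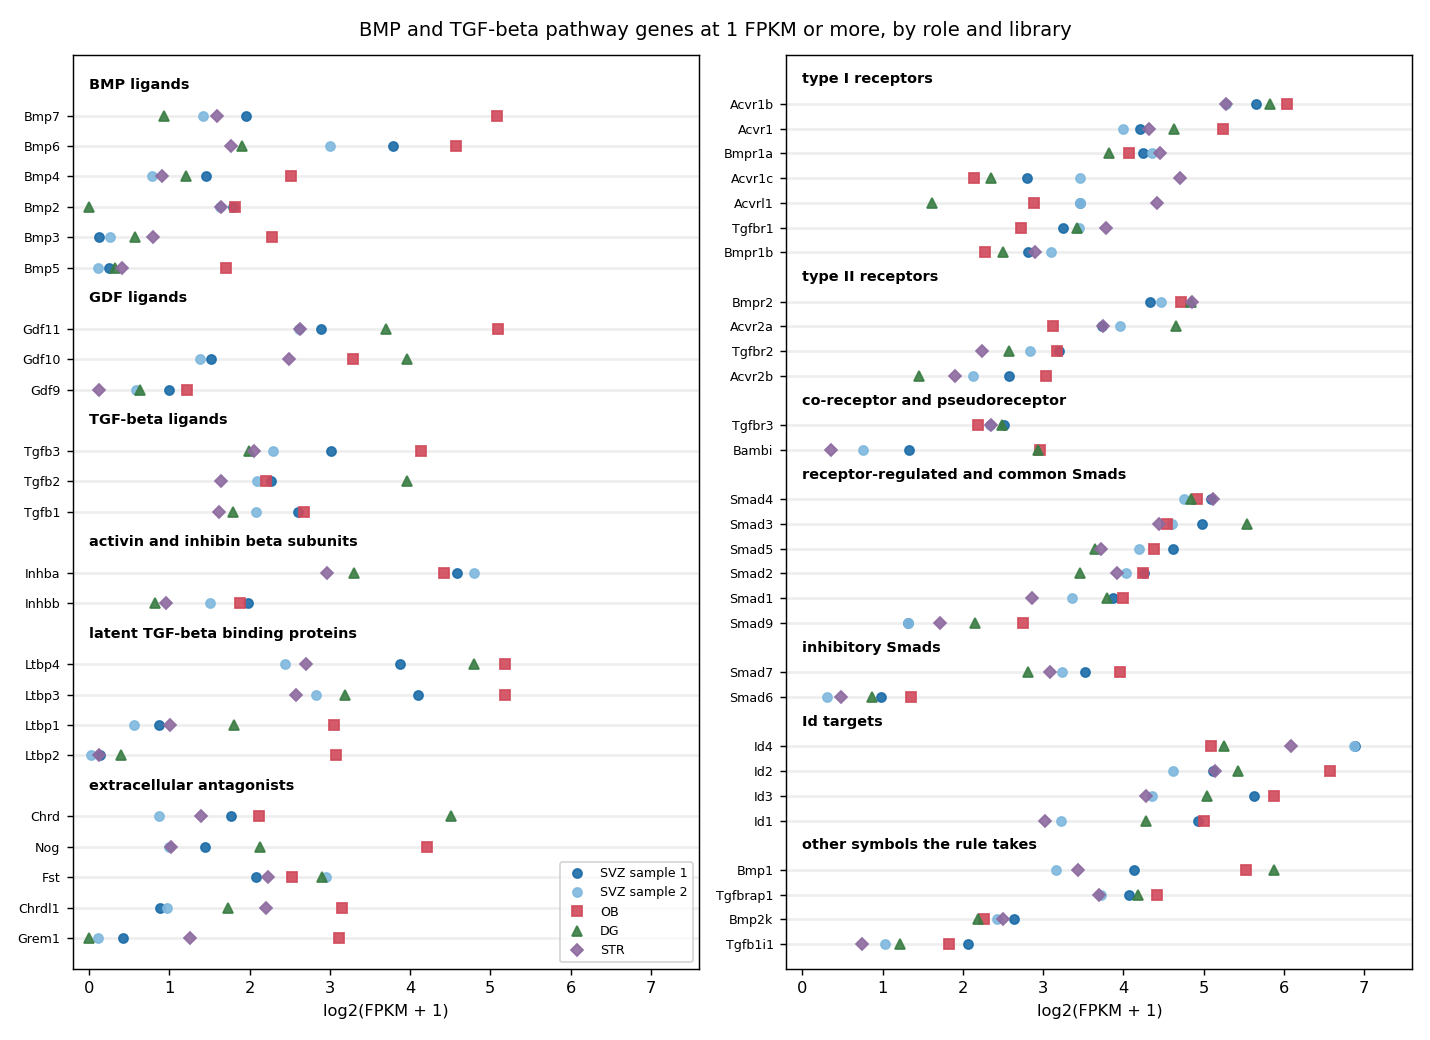
Level of the members described at 1 FPKM or more in a library, grouped by role, on log2(FPKM + 1), with 1 point per library. Points of some ligands and antagonists, such as Bmp7 and Nog, spread widely with OB to the right, while Chrd and Tgfb2 lie highest in DG. Those of some receptors and Smads, such as Acvr1b and Smad4, lie close together, while the receptors Acvr1c and Acvrl1 spread widely with STR to the right.

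Summed over each list, markers of several cell types were also highest in OB. The 7 meningeal fibroblast markers summed to 109 FPKM in OB, 29.0 in DG and 11.7 to 20.3 in the other 3 libraries, with none of the 7 at 0 in any library. Of the 7, Lum was highest in DG, at 3.41 FPKM, and the others were highest in OB. The 6 endothelial markers summed to 156 FPKM in OB and to between 51.5 and 93.6 elsewhere, with Cldn5 and Ly6c1 the largest in OB at 70.8 and 56.2 FPKM. Flt1 and Tek were highest in STR instead, at 12.6 and 3.28 FPKM, against 10.5 and 3.25 in OB. The 7 astrocyte and stem cell markers summed to 1428 FPKM in OB, of which Fabp7 alone gave 702, and to between 290 and 687 elsewhere. Within that list Gja1 and Thbs4 were highest in SVZ sample 1, at 157 and 70.5 FPKM, and Aqp4 was highest in DG, at 44.1 FPKM. Frzb, a marker of olfactory ensheathing glia, stood at 55.3 FPKM in OB, 15.3 in DG and 0.409 to 0.575 in the rest. The part of these cell types in the OB levels was not tested.

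The 7 choroid plexus markers summed to 53.6 FPKM in OB, of which Aqp1 alone gave 50.7, and to between 12.3 and 32.1 FPKM elsewhere, with Kcne2 and Aqp1 at 0 in DG. None of the others in that list was highest in OB. Ttr stood at 0.950 FPKM in OB, 15.1 and 18.2 in the SVZ samples, 17.6 in DG and 6.37 in STR. The part of choroid plexus in the OB levels was not tested.

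Several of the receptors varied less. Bmpr1a and Bmpr1b, the type I receptors of BMPs, ranged over 13.1 to 21.0 FPKM and 3.84 to 7.53 FPKM, and Acvr1b, the activin type I receptor, over 37.7 to 64.5 FPKM. None of these 3 reached a distance of 1 unit in any pair. Bmpr2, the BMP type II receptor, ranged from 19.1 FPKM in SVZ sample 1 to 28.0 FPKM in STR, and Tgfbr2 from 3.72 to 8.18 FPKM. Summed over the 7 type I receptors, the levels were between 110 and 142 FPKM in all 5 libraries, and over the 4 type II receptors between 44.5 and 58.6 FPKM.

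Acvr1c, which encodes the Nodal and activin receptor ALK7, was the 1 member at least 1 unit above each other region in STR. It stood at 5.94 and 10.02 FPKM in the SVZ samples, 3.39 in OB, 4.11 in DG and 25.1 in STR. STR lay above all others: the distances were -1.58 for SVZ minus STR (SE 0.49; -1.24 with SVZ sample 2), -2.57 for OB minus STR (SE 0.56, bridged -1.91) and -2.35 for DG minus STR (SE 0.56, bridged -1.69). The 2 listed transcripts of Acvr1c traded places between libraries: NM_001033369 made up 3.70% and 68.3% of the gene's level in the 2 SVZ samples, 5.81% in OB, 81.6% in DG and 57.5% in STR. The split between the transcripts thus also differed widely within the SVZ, so only the sum is read here.

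Acvrl1, the endothelial receptor ALK1, stood at 10.04 and 9.99 FPKM in the SVZ samples, 6.41 in OB, 2.06 in DG and 20.4 in STR. Its 2 SVZ values were nearly equal and the 4 regions did not overlap. DG minus STR was -2.80 (SE 0.31, bridged -2.81), and its adjusted limma p of 0.408 was the smallest of any member in that pair. Of the 6 endothelial markers, Cldn5 and Ly6c1 were higher in DG than in STR. The other 4 were lower in DG, as Acvrl1 was: Flt1 stood at 7.71 FPKM in DG and 12.6 in STR, Pecam1 at 5.12 and 6.66, Tek at 2.49 and 3.28, and Cdh5 at 3.90 and 3.97. Their part in the Acvrl1 level was not tested.

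Acvr2a, an activin type II receptor, stood at 12.3 and 14.5 FPKM in the SVZ samples, 7.72 in OB, 24.2 in DG and 12.4 in STR, with OB 1.53 log2 below DG (a difference of -1.53, SE 0.30). Its locus overlaps Orc4. Acvr2b was lowest where Acvr2a was highest, at 1.75 FPKM in DG and 7.19 FPKM in OB, a distance of 1.58 (SE 0.49). Acvr1, which carries BMP signals and is known as ALK2, ranged from 15.0 FPKM in SVZ sample 2 to 36.7 in OB, and its SVZ minus OB value of -1.14 (SE 0.24) became -0.46 when only the transcript with the highest mean was used. Tgfbr1 ranged from 5.62 FPKM in OB to 12.7 in STR.

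Bambi, a pseudoreceptor that lacks the kinase domain and blocks signalling, was detected mainly in OB and DG. It stood at 1.52 and 0.694 FPKM in the SVZ samples, 6.77 in OB, 6.63 in DG and 0.280 in STR. OB and DG were level with each other and stood 2.60 and 2.58 log2 above STR (SE 0.52 each), with bridged values of 2.03 and 2.00. Tgfbr3, the co-receptor betaglycan, lay between 3.57 and 4.72 FPKM in all 5 libraries.

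Among the Smads, Smad4, the common partner of both branches, ranged over 26.1 to 33.8 FPKM, and Smad2, a TGF-beta and activin effector, over 9.95 to 18.2 FPKM. Smad3, its partner in that branch, stood at 30.6 and 23.3 FPKM in the SVZ samples, 22.2 in OB, 45.4 in DG and 20.7 in STR. DG was highest, 1.10 log2 above STR (SE 0.35), but 0.72 bridged. Of the BMP effectors, Smad5 ranged over 11.5 to 23.6 FPKM and Smad1 over 6.29 to 14.9 FPKM.

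Smad9, the BMP effector also called Smad8, was low and highest in OB, at 1.488 and 1.498 FPKM in the SVZ samples, 5.72 in OB, 3.43 in DG and 2.27 in STR. Its SVZ minus OB difference was -1.43 (SE 0.31). Smad7, an inhibitory Smad, ranged over 6.04 to 14.6 FPKM, and Smad6, which mainly blocks BMP signals, ranged from 0.241 FPKM in SVZ sample 2 to 1.55 FPKM in OB. Summed over the 6 receptor-regulated and common Smads, the 5 libraries lay between 89.5 and 121 FPKM.

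The Id genes, direct BMP targets in many cells, did not move as 1 group. The promoter windows of Id2, Id3 and Id4 are shown because their genes followed 3 different orders across the libraries. The windows are RefSeq sequences on GRCm38.p6, 250 bases before to 50 after the start of transcription, read 5′ to 3′ on the gene's strand. Capitals mark matches to GGCGCC, the core of the BMP response element, which reads the same on both strands, or to GTCTG, a Smad binding element, and its reverse complement CAGAC. The motifs can share 1 end base, which none of the matches shown here do. The Id2 window is chr12:25096043-25096342 (minus strand), the Id3 window chr4:136143572-136143871 (plus strand) and the Id4 window chr13:48260866-48261165 (plus strand). Id1 was not matched.
Id2: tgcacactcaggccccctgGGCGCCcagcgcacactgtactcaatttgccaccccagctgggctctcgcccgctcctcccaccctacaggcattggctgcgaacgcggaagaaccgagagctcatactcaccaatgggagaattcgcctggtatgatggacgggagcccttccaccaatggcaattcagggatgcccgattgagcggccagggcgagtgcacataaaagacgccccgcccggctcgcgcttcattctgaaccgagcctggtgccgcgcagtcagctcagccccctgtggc
Id3: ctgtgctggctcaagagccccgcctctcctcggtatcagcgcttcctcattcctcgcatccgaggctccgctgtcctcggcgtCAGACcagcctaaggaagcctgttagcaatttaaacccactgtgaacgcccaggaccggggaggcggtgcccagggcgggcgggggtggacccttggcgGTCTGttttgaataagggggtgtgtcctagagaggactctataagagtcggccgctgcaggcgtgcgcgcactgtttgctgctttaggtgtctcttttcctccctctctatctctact
Id4: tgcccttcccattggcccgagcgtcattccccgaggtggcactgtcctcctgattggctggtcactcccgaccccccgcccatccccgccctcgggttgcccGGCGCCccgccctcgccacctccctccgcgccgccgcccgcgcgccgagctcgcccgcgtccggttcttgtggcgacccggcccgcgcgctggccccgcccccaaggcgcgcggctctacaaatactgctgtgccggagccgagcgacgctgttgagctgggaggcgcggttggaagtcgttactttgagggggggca
The Id2 and Id4 windows hold 1 GGCGCC each and no GTCTG or CAGAC, and the Id3 window holds 2 of the latter and no GGCGCC. Over all members, 44 of 65 had a window, 55 windows in all. GGCGCC was in 16 of the 55 (29.1%), against 11.9% of 32851 windows in the table, and GTCTG or CAGAC in 25 (45.5%), against 49.6%. The OB-high members had 10 windows, which cover 9 of them, as Bmp3, Bmp7, Nog and Tgfb3 had none. Of the 10, 2 (20%) held GGCGCC and 7 (70%) held GTCTG or CAGAC. A match is a description of these letters and no evidence of binding.

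Id4, which marks quiescent neural stem cells and astrocytes, was highest in the SVZ. It stood at 116.9 and 116.1 FPKM in the SVZ samples, 33.2 in OB, 37.0 in DG and 67.0 in STR. The 2 SVZ values differed by 0.01 log2 and lay above the single library of each of the 3 other regions. The SVZ stood 1.78 log2 above OB (SE 0.22) and 1.63 above DG (SE 0.22), with adjusted limma p-values of 0.336 and 0.372, and the distance from STR was below 1 unit. The deposited position of Id4, chromosome 13 from 48139600 to 48359405 (mm9), also takes in a catalogued long noncoding RNA.

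Id2, known for its role in olfactory bulb interneurons, was highest in OB. It stood at 33.8 and 23.6 FPKM in the SVZ samples, 94.1 in OB, 41.9 in DG and 34.2 in STR. OB was high alone, 1.15 log2 above DG (SE 0.42) and 1.44 above STR (SE 0.42, bridged 0.94). After median ratio scaling both distances were below 1 unit, 0.87 from DG and 0.86 from STR.

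Id1 and Id3, the classic immediate BMP targets, followed the library sets. Id1 stood at 29.4 and 8.32 FPKM in the SVZ samples, 31.2 in OB, 18.5 in DG and 7.14 in STR, and Id3 at 48.5 and 19.4, 57.8, 32.0 and 18.4 FPKM in the same order. For both, SVZ sample 2 lay next to STR and away from SVZ sample 1. The OB minus STR value of Id1 was 1.98 (SE 1.21) and 0.28 bridged, that of Id3 1.60 (SE 0.92) and 0.32 bridged, and DG minus STR of Id1 turned from 1.26 (SE 1.21) to -0.45. SVZ minus STR of Id1 was 1.05 (SE 1.05) and 0.19 with SVZ sample 2 alone, so for both genes the region and the library set cannot be told apart.

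**Figure D4:**
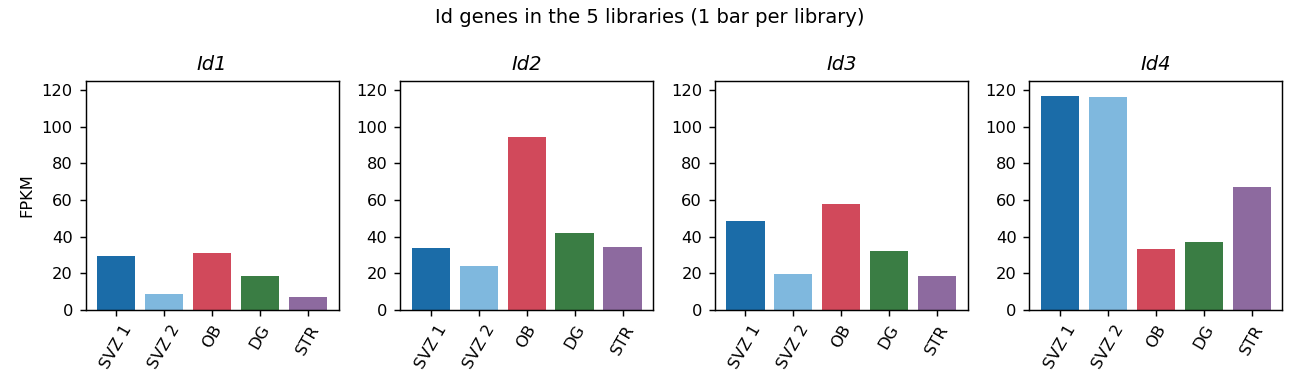
FPKM of the 4 Id genes, with 1 bar per library. Id4 is high in both SVZ samples (116.9 and 116.1 FPKM), Id2 is high in OB (94.1 FPKM), and Id1 and Id3 are low in SVZ sample 2 and STR.

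Within the SVZ, 5 of 45 members stood at least 1 unit higher in sample 1, against 11.8% of coding genes, and 0 stood lower, against 1.79%. The 5 were Id1 by 1.71 log2, Ltbp4 by 1.43, Id3 by 1.28, Ltbp3 by 1.26 and Tgfb1i1 by 1.02. In all, 35 of the 45 were above 0 and 10 below, and the median of 0.35 log2 was near the 0.34 of coding genes. Across the 45 members the gap followed transcript GC content with a Spearman rho of 0.63, a description across genes that share the same 2 libraries. Member GC ran from 39.9% to 70.5% with a median of 52.4%, against 49.5% for coding genes. The part of GC content in the gap was not tested.

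**Figure D5:**
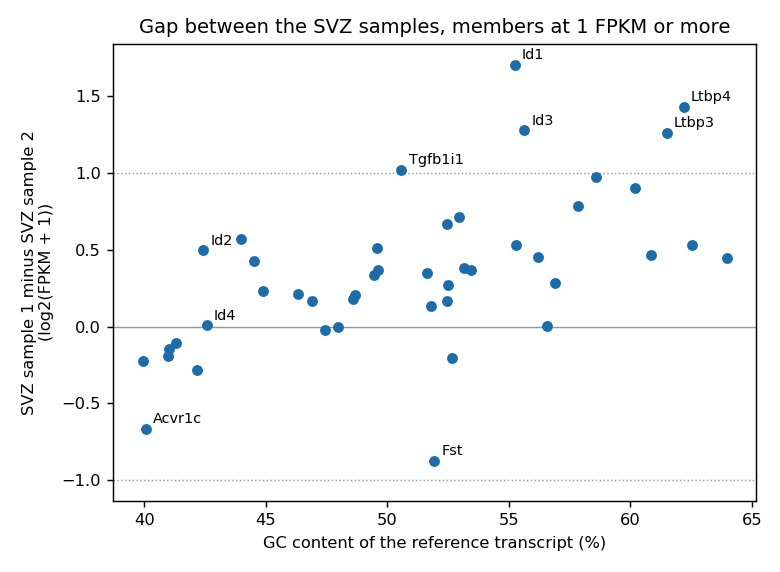
SVZ sample 1 minus SVZ sample 2 on log2(FPKM + 1) against transcript GC percent, 1 point per member at 1 FPKM or more in a SVZ library. The gap widens with GC, and Id1 lies highest at 1.71.

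Of the other symbols taken by name, Bmp2k, a kinase induced by BMP2, ranged over 3.57 to 5.25 FPKM. Tgfbrap1, an endosomal protein that binds TGF-beta receptors, ranged over 11.97 to 20.4 FPKM. Neither reached 1 unit in any pair. Tgfb1i1, a focal adhesion adaptor, ranged over 0.674 to 3.17 FPKM, and its OB minus STR value of 1.09 was 0.06 bridged. The noncoding transcript of Bmp1, NR_033241, took 48.1% to 72.5% of the gene's level, with the largest share in DG.

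Other genes of the pathway were read from 6 lists of 60 genes, which hold none of the members. Of those tested, 15 of 49 were higher in OB than in STR and 2 lower, against 30.6% and 6.69% of coding genes. The share higher was thus near that of coding genes. In OB against DG, 13 of 49 were higher and 2 lower, against 14.4% and 5.28%. DG against STR gave 7 of 44 higher and 5 lower, against 17.5% and 8.28%. SVZ against STR gave 5 of 46 and 0, against 7% and 1.12%. SVZ against OB gave 4 of 50 and 9, against 7.18% and 14.8%. SVZ against DG gave 5 of 45 and 2, against 10.6% and 7.97%.

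Among the extracellular modulators, Nbl1, a BMP antagonist of the DAN family, stood at 12.6 and 4.72 FPKM in the SVZ samples, 44.03 in OB, 32.4 in DG and 5.22 in STR, and OB minus STR was 2.86 log2 (SE 0.90, bridged 1.60). Vwc2, another secreted BMP antagonist, stood at 7.55 FPKM in OB and at 0.622 to 0.983 FPKM elsewhere. Rgmb, a BMP co-receptor, stood at 16.1 and 10.3 FPKM in the SVZ samples, 53.4 in OB, 19.5 in DG and 11.4 in STR. All 3 were highest in OB. Rgma, its relative, ranged from 9.93 FPKM in STR to 28.7 in OB, with 27.4 and 12.5 FPKM in the SVZ samples, and its OB minus STR value of 1.44 (SE 0.78) was 0.38 bridged. Inha, the inhibin alpha chain, ranged from 14.2 FPKM in STR to 30.5 in SVZ sample 1.

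Ctgf, a matrix protein induced by TGF-beta, stood at 3.41 and 2.20 FPKM in the SVZ samples, 44.3 in OB, 1.75 in DG and 4.44 in STR, with OB minus DG at 4.04 log2 (SE 0.49). Mmp14, a protease that frees latent TGF-beta, stood at 14.0 and 6.17 FPKM in the SVZ samples, 21.9 in OB, 6.91 in DG and 2.94 in STR. Both were highest in OB. Itgav, an integrin chain that activates latent TGF-beta, ranged from 9.40 FPKM in DG to 28.8 in OB, a distance of 1.52 (SE 0.27). Junb, an immediate early target, stood at 102.6 and 60.2 FPKM in the SVZ samples, 51.8 in OB, 33.0 in DG and 26.1 in STR, and was highest in the SVZ by 1.56 over STR (SE 0.50; 1.18 with SVZ sample 2).

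Some inhibitors were highest in the SVZ. Tgif1, a repressor of Smad transcription, stood at 5.95 and 4.18 FPKM in the SVZ samples, 1.59 in OB, 0.543 in DG and 0.378 in STR, and SVZ minus STR was 2.12 log2 (SE 0.37; 1.91 with SVZ sample 2). Pmepa1, a feedback inhibitor of TGF-beta signalling, stood at 68.4 and 43.2 FPKM in the SVZ samples, 35.3 in OB, 13.5 in DG and 35.6 in STR, and SVZ minus DG was 1.93 (SE 0.44). For Tgif1 both SVZ samples lay above the single library of each other region. The 4 cycling-cell markers summed to 47.4 and 36.4 FPKM in the SVZ samples and to between 1.05 and 3.26 FPKM elsewhere, with Ccnb1 at 0 in DG, and their part in the Tgif1 level was not tested.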

How the data were processed

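Poly(A) RNA of 5 samples (SVZ in duplicate, OB, DG and STR once each) was measured by sequencing. The submitters' processing notes name CASAVA, TopHat 1.2.0, Cufflinks 1.0.0 and mm9, without role or order. The deposited table gives FPKM values that the authors computed per transcript. They carry no read counts, so the depth is unknown, no counting interval is given, and a 0 can be a failed estimate. The deposited exon file has a constant score and served for positions of catalogue transcripts. FPKM of transcripts with 1 symbol were summed (8 members had several transcripts). Reads of overlapping genes may be shared.

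Regions were compared in pairs on log2(FPKM + 1), keeping genes that reached 1 FPKM in either region. Counting was at 1 log2 unit. Under R 4.3.3, limma 3.58.1 was fitted with a trended empirical Bayes step to the whole table over 4 regions, with Benjamini-Hochberg adjustment over all genes tested. P-values measure only the spread of the SVZ pair. The script was tested on simulated data. GC content came from GENCODE M21 and promoter windows from RefSeq GRCm38.p6, builds other than mm9, so no position was carried over. Every member was counted, and those past 1 unit were named, except 1 that is not reported here. Of each other pathway list, the 2 genes named had the largest differences among those at 5 FPKM or more (1 list had 1 such gene). Members, lists, markers and tests were chosen with earlier results of these data known. Alternatives were the pseudocount, the filter, scaling, the choice of transcript, each SVZ sample left out, and bridging through the SVZ samples.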

Additional observations from a re-analysis of the deposited data

Results flagged for a closer look

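Catalogued long noncoding RNA transcripts that carry a member's name were left out of the members, and 3 of these loci stood at 1 FPKM or more in a library and above the striatal control library. The locus named after Inhba, 1 transcript of 181 bases in 2 exons on the minus strand of chromosome 13, stood at 3.77 and 6.32 FPKM in the SVZ samples, 0.147 in OB, 12.8 in DG and 5.92 in STR. This order is not that of Inhba itself, which was highest in the SVZ. The locus named after Bmpr1a, on the plus strand of chromosome 14, stood at 2.05 FPKM in OB and at 0.494 FPKM in STR. The 2 transcripts named after Id4 summed to 1.23 FPKM in SVZ sample 1, 0.623 in SVZ sample 2 and 0.521 in STR. These differences were not tested.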

How the results depend on the processing

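OB, DG and STR rest on 1 library each, and error comes from the SVZ pair alone. With a pseudocount of 0.1 FPKM, the members at least 1 log2 unit apart were 11 for SVZ against STR in place of 6, and 19 for SVZ against DG in place of 12. Leaving out 1 SVZ sample gave 6 to 11 members for SVZ against STR, the 11 being without sample 2. The total of higher and lower members in the other pairs stayed within 1.5 times under each alternative run, but the splits moved more. Members higher in the SVZ than in STR went from 3 to 9 without SVZ sample 2, a comparison between the library sets whose coding share was not counted. Those higher than in DG went from 5 to 9, against 12.5% of coding genes. Under median ratio scaling, members lower in OB than in STR went from 4 to 7 and those higher in DG than in STR from 10 to 6.

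The bridged value of Id1 for DG minus STR reversed to -0.45. Bridging took 14 member differences below 1 unit and kept 28, median ratio scaling took 19 and kept 88, and use of 1 transcript per gene took 4 and kept 103. Fitting limma to the tested genes of a pair only, an alternative chosen after seeing the data, called 14 genes for SVZ against DG (0 of them members) and 494 for OB against DG (5 members), and 0 in the other 4 pairs. With a 5 FPKM filter or 1 transcript per gene, also chosen after seeing the data, it called 0 in each pair. No paired analysis was possible because OB, DG and STR have 1 sample each.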
